A study of Mus musculus with 9 samples.

Results

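Gene expression in the lung was compared between CSS12 and BcA86, the 2 mouse strains of the study that share airway hyperresponsiveness, to describe what separates them. The study contrasted both strains with the hyporesponsive C57BL/6J strain. It also compared CSS12 with BcA86, and kept as candidates only genes that did not differ between them. What does differ in that direct contrast is described here. All 23521 probesets that carry 1 gene symbol in the annotation of the array were taken, of 41345 on the array, on 3 CSS12 and 3 BcA86 arrays of 9 in all. The 3 C57BL/6J arrays are given beside them as the level of the common background strain.

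CSS12 is a consomic strain, in which Chromosome 12 of C57BL/6J is replaced by the whole Chromosome 12 of A/J. BcA86 is a recombinant congenic strain, inbred after backcrosses of A/J hybrids to C57BL/6J, so that most of its genome is from C57BL/6J and several segments are from A/J. BcA86 carries the A/J Chromosome 12 except for its proximal end, and the cross made with it had its other markers on Chromosomes 8, 9, 15, 17 and 18. Both strains therefore share the C57BL/6J background and most of an A/J Chromosome 12. Each array holds whole lung RNA of a separate untreated mouse, and a strain is represented by 3 mice. The methods give a single range of young adult age for all animals, and the mice were kept in a pathogen-free facility on a cycle of light and dark. No source used here gives the sex or exact age of each mouse, or the hour at which its lung was taken.

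Some background helps to read the genes that follow. The circadian clock of each cell is a feedback loop, in which the BMAL1 protein (encoded by *Arntl*) with CLOCK or NPAS2 switches on the *Per* and *Cry* genes, whose proteins then hold BMAL1 back, while REV-ERB proteins (*Nr1d1* and *Nr1d2*) repress *Arntl*. In lung, as in other organs, the transcript of *Arntl* and those of its targets peak at opposite times of the day. Glucocorticoids, the adrenal hormones that follow the day and respond to stress, act through a nuclear receptor that raises a set of direct targets in most tissues, among them *Fkbp5*, *Tsc22d3* and *Per1*, so the 2 systems share members.

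The deposited values are log2 expression values, on which a difference of 1 is a 2-fold difference. They ran between 1.29 and 13.68, each array had a median between 6.08 and 6.13, and pairs of arrays correlated at 0.9857 to 0.9931 across probesets. Markers of lung were high on all 9 arrays, with *Sftpc*, surfactant protein C of alveolar type II cells, at 13.29 to 13.45. *Glycam1* and *Madcam1* of lymph node lay at 5.57 to 6.13, while *Tnni3* of heart muscle lay at 10.41 to 11.45, and none of these markers passed the adjusted threshold of 0.05 between the strains. *Xist* lay at 4.35 to 4.69 and the Y-linked *Kdm5d*, *Eif2s3y* and *Uty* at 8.05 to 8.58 in all 9 mice. Some mice stood apart in genes that vary within a strain. CSS12 replicate 2 had *Muc5ac*, a secreted airway mucin, at 9.88, against 6.27 and 6.81 in the other CSS12 mice, and *Cxcl9*, a chemokine induced by interferon gamma, at 9.16, against 7.22 and 6.69. BcA86 replicate 1 had *Nppa*, the atrial natriuretic peptide, at 11.49, against 9.16 and 9.02 in the other BcA86 mice.

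With limma, 296 of 41345 probesets (0.716%) passed an adjusted p of 0.05 in the contrast of CSS12 with BcA86. Among the probesets with 1 symbol, 63 (0.268%) were higher and 77 (0.327%) were lower in CSS12. They stood for 119 genes, 61 higher and 58 lower, of which 34 differed by over 2-fold, 15 of them higher and 19 lower. On all 140 probesets the CSS12 and BcA86 arrays did not overlap. The median absolute log2 difference of the 119 called genes was 0.70, beside 0.08 over all genes, whose median signed difference was 0.01. C57BL/6J did not side with one strain: its mean was nearer to CSS12 for 30 of the 61 higher genes and for 37 of the 58 lower genes, and lay between the strains for 81 of the 119. The number of calls fell from 296 probesets when any 1 array was left out. It was 49 without CSS12 replicate 3, 59 without CSS12 replicate 2, and between 91 and 196 without each of the other arrays in turn, those of C57BL/6J included. How much of the fall is due to single mice and how much to fewer arrays was not tested. Of the 119 genes, 20 passed with every array left out, 12 higher and 8 lower, and the same 20 also passed in a fit of the 6 CSS12 and BcA86 arrays alone and with the Cyber-T test that the study used. Cyber-T was run here at an adjusted p of 0.05, without the fold cut of the study. It was the more lenient test: 117 of the 119 genes passed it. It called 451 of the 23521 probesets with 1 symbol higher and 362 lower, and its counts for the lists below are to be read beside these. Each other call was lost without at least 1 of the arrays. The 20 were *Mmrn1*, *Chst4*, *D730005E14Rik*, *Slc6a2*, *Apobec3*, *Plac9a*, *Myrip*, *Ssh3*, *Fkbp5*, *Tbc1d9*, *Cbx7* and *Rsph3b*, which were higher in CSS12, and *Trappc2l*, *Nnt*, *Iah1*, *Mup-ps12*, *Speer4b*, *Rpl3*, *Gm17019* and *Speer4cos*, which were lower.

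The largest difference was in *Mmrn1*, which encodes multimerin, a large adhesive protein stored in platelets and in endothelium, including that of lymphatic vessels. It had values of 8.82, 8.93 and 9.07 in CSS12 mice, 5.58, 5.11 and 5.48 in BcA86 mice and 8.69, 8.78 and 8.59 in C57BL/6J mice. The BcA86 mice were far below both other strains, and CSS12 lay beside C57BL/6J. The log2 difference was 3.55 (SE 0.13, adjusted p = 5.58e-05), a fold of 11.7. As background, *Mmrn1* is known to be deleted in a substrain of C57BL/6, and the genotype of these mice at the gene was not analysed here. The 3 measured genes on either side of it in the RefSeq gene order (*Tigd2*, *Gprin3*, *A530053G22Rik*, *A730020E08Rik*, *Ccser1* and *Atoh1*) differed by −0.12 to 0.22 with an adjusted p of at least 0.153. Of the other measured members of the lists of lymphatic endothelium and of platelet genes, none differed at an adjusted p under 0.05. *Lyve1*, a hyaluronan receptor of lymphatic vessels, had a difference of 0.16 (SE 0.10, adjusted p = 0.574), and *F13a1*, which encodes a subunit of clotting factor XIII, had −0.36 (SE 0.15, adjusted p = 0.41).

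*Chst4* encodes a sulfotransferase of the Golgi that builds the sulfated sugars by which lymphocytes bind high endothelial venules. It had values of 8.46, 7.99 and 8.21 in CSS12 mice, 5.87, 5.50 and 5.67 in BcA86 mice and 8.26, 8.14 and 8.32 in C57BL/6J mice. Again the BcA86 mice were low and the CSS12 and C57BL/6J mice overlapped, and the difference between CSS12 and BcA86 was 2.54 (SE 0.14, adjusted p = 0.000418), a fold of 5.81. *Glycam1* and *Madcam1*, which mark the same venules, had differences of −0.14 (SE 0.10, adjusted p = 0.639) and 0.04 (SE 0.08, adjusted p = 0.875). Among the other carbohydrate sulfotransferases, 15 of which were measured, none passed, the next in size being *Chst8* with 0.45 (SE 0.14, adjusted p = 0.229) and *Chst1* with −0.36 (SE 0.09, adjusted p = 0.132). *Tat*, tyrosine aminotransferase, the measured gene next to *Chst4* on Chromosome 8, had a difference of 0.73 (SE 0.15, adjusted p = 0.0682), and the other 5 measured neighbours lay between −0.10 and 0.19.

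*Slc6a2*, the transporter that takes up noradrenaline from sympathetic synapses and, in lung, into endothelium, was also higher in CSS12. Its values were 9.23, 9.41 and 9.22 in CSS12 mice, 7.497, 7.61 and 7.65 in BcA86 mice and 8.44, 9.12 and 8.90 in C57BL/6J mice, so that CSS12 was above BcA86 in every mouse, and the difference was 1.70 (SE 0.16, adjusted p = 0.00582). *Myrip*, a linker of secretory granules to myosin, was high in CSS12 alone, with 8.44, 8.40 and 8.62 in CSS12 mice, 7.16, 7.36 and 7.27 in BcA86 mice and 7.31, 7.51 and 7.40 in C57BL/6J mice. Its difference was 1.22 (SE 0.09, adjusted p = 0.0024). *Ssh3*, a member of the slingshot phosphatases that act on cofilin, had 8.48, 8.55 and 8.52 in CSS12 mice, against 7.25, 7.30 and 7.46 in BcA86 mice, a difference of 1.18 (SE 0.07, adjusted p = 0.000833). *Tbc1d9*, a protein with a domain that acts on Rab GTPases, had 8.70, 8.77 and 8.63 in CSS12 mice, against 7.66, 7.68 and 7.86 in BcA86 mice, a difference of 0.96 (SE 0.08, adjusted p = 0.00466). *Plac9a*, a small secreted placental protein by its name, had 10.70, 10.59 and 10.67 in CSS12 mice, 9.43, 9.35 and 9.40 in BcA86 mice and 10.86, 10.83 and 10.88 in C57BL/6J mice. All 3 of its probesets were called, with differences between 1.23 and 1.26 (adjusted p = 0.00012 for the largest), and its near-identical copy *Plac9b* means that the signal of the probes cannot be assigned to either copy. Each of these 5 genes passed with every array left out in turn, as did *Rsph3b*, a protein of the radial spokes of cilia, with a difference of 0.70 (SE 0.07, adjusted p = 0.00749).

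Of the genes lower in CSS12, *Nnt* encodes the mitochondrial transhydrogenase that makes NADPH from the proton gradient, and C57BL/6J is known for a deletion within this gene. It had values of 8.09, 8.23 and 8.16 in CSS12 mice, 9.13, 9.04 and 9.02 in BcA86 mice and 8.04, 8.22 and 8.15 in C57BL/6J mice. CSS12 was at the level of C57BL/6J, and BcA86 was above both, with a difference of −0.90 (SE 0.07, adjusted p = 0.00284). The measured genes around it on Chromosome 13 did not pass and lay between −0.05 and 0.13. Of 13 measured genes of mitochondrial NADPH and redox handling, *Nnt* was the one called. *Gsr*, glutathione reductase, had −0.18 (SE 0.06, adjusted p = 0.278), and *Slc25a11*, the carrier of oxoglutarate, had −0.16 (SE 0.06, adjusted p = 0.374).

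*Trappc2l*, a subunit of the complexes that tether transport vesicles, had 9.71, 9.51 and 9.53 in CSS12 mice, 10.43, 10.48 and 10.35 in BcA86 mice and 9.81, 9.65 and 9.62 in C57BL/6J mice, and the difference was −0.84 (SE 0.08, adjusted p = 0.00749). *Rpl3*, a protein of the large ribosomal subunit, had a probeset with 8.96, 9.15 and 9.04 in CSS12 mice, 10.58, 10.47 and 10.34 in BcA86 mice and 9.20, 8.94 and 9.26 in C57BL/6J mice, where the BcA86 mice stood above both other strains, with a difference of −1.41 (SE 0.10, adjusted p = 0.00242). The other 2 probesets of *Rpl3* with 1 symbol were not called, with differences of 0.13 and 0.12, so the probesets of this gene disagree. *Spon2*, a secreted spondin of the extracellular matrix also called mindin, was lower in CSS12 by 1.20 (SE 0.18, adjusted p = 0.0331), with 6.95, 7.15 and 6.81 in CSS12 mice, against 8.06, 8.03 and 8.44 in BcA86 mice. This call passed in 1 of the 9 fits with an array left out (adjusted p up to 0.136). *Trim30b*, a member of a tripartite motif family of immune cells, and *Ifitm6*, a member of the interferon-induced transmembrane family found in myeloid cells, were lower by 1.15 (SE 0.19, adjusted p = 0.0419) and 1.22 (SE 0.18, adjusted p = 0.0316). Both passed in 2 of the 9 such fits.

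**Figure D1:**
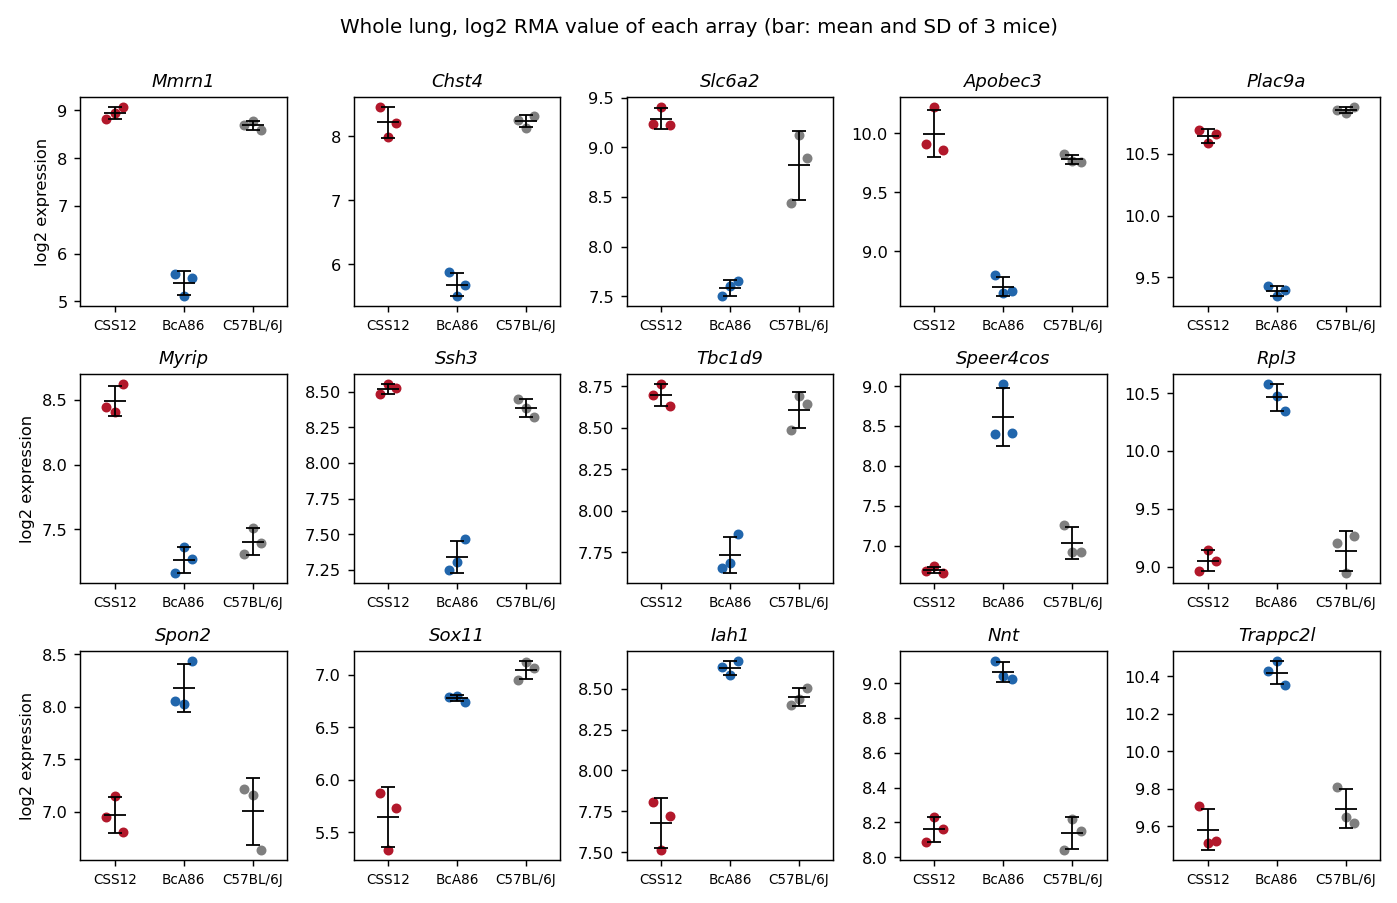
Log2 expression (vertical axes, each panel with its own range) of 15 genes that differed between CSS12 and BcA86, with a point per mouse for CSS12, BcA86 and C57BL/6J and bars for the mean and SD of 3 mice. In the first 8 panels the CSS12 mice lie above the BcA86 mice and in the last 7 below them, with *Mmrn1* at 8.94 ± 0.13 in CSS12 and 5.39 ± 0.25 in BcA86. The C57BL/6J mice lie nearer to CSS12 except for *Myrip*, *Sox11* and *Iah1*.

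The place of the called genes was set beside what the strains carry. On the proximal end of Chromosome 12 CSS12 is A/J and BcA86 is C57BL/6J, and this end was taken here as the genes before *Hdac9* in the RefSeq gene order, since *Hdac9* lies just inside the A/J segment of BcA86. Of 159 measured genes there, 6 (3.774%) were called, and for all 6 the C57BL/6J mean was nearer to BcA86. On the rest of Chromosome 12, which is A/J in both strains, 2 of 599 genes (0.334%) were called. On Chromosomes 8, 9, 15, 17 and 18, which hold the other markers of the cross with BcA86 and are C57BL/6J in CSS12, 36 of 4747 genes (0.758%) were called, and for 26 of them C57BL/6J was nearer to CSS12. On the other autosomes, 67 of 15699 genes (0.427%) were called, with C57BL/6J nearer to CSS12 for 36. The ends of the segments were not analysed here, and these shares are descriptions without a test. The probes were not compared with A/J variants, and whether such variants changed the signal of any gene, on these chromosomes or others, was not tested.

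The 6 genes of the proximal end were *Iah1*, *Rnf144a* and *Sox11*, which were lower in CSS12, and *Klhl29*, *Greb1* and *1700030C10Rik*, which were higher. *Iah1*, an esterase, had 7.81, 7.51 and 7.72 in CSS12 mice, 8.63, 8.58 and 8.67 in BcA86 mice and 8.40, 8.44 and 8.51 in C57BL/6J mice, and its difference of −0.95 (SE 0.08, adjusted p = 0.00466) passed with every array left out. *Sox11*, a transcription factor of developing tissues, had 5.88, 5.33 and 5.73 in CSS12 mice, 6.79, 6.80 and 6.74 in BcA86 mice and 6.95, 7.13 and 7.06 in C57BL/6J mice. Its CSS12 values lay below all other mice, with a difference of −1.13 (SE 0.13, adjusted p = 0.0152). *Rnf144a*, a ubiquitin ligase, had 9.86, 9.78 and 9.73 in CSS12 mice, 10.36, 10.55 and 10.50 in BcA86 mice and 10.25, 10.13 and 10.28 in C57BL/6J mice, a difference of −0.68 (SE 0.08, adjusted p = 0.0124). *Klhl29*, of the kelch family, had 8.12, 7.93 and 8.16 in CSS12 mice, 7.28, 7.41 and 7.32 in BcA86 mice and 7.11, 7.34 and 7.06 in C57BL/6J mice, with CSS12 above both other strains and a difference of 0.73 (SE 0.10, adjusted p = 0.0219). *Greb1*, known as an oestrogen-regulated gene of breast cells, was higher by 0.66 (SE 0.11, adjusted p = 0.0415), and *1700030C10Rik* was higher by 0.55 (SE 0.09, adjusted p = 0.0383). With an array left out, *Rnf144a* passed in 7 of 9 fits, *Sox11* in 6, *Klhl29* in 4, and *Greb1* and *1700030C10Rik* in 1 each. On the part of Chromosome 12 that both strains hold from A/J, the called genes were *Cipc*, which encodes an inhibitor of CLOCK and BMAL1 and is described with the clock genes, and *Flrt2*, a fibronectin leucine-rich transmembrane protein that acts in adhesion, with 8.33, 8.06 and 8.21 in CSS12 mice, against 7.71, 7.61 and 7.74 in BcA86 mice and a difference of 0.52 (SE 0.08, adjusted p = 0.0413). *Flrt2* did not pass in any of the 9 fits with an array left out.

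None of the 3 measured candidates named for the Chromosome 12 interval passed the adjusted threshold. *Eapp*, which binds E2F factors, had 7.35, 7.35 and 7.44 in CSS12 mice, against 7.41, 7.28 and 7.30 in BcA86 mice, a difference of 0.05 (SE 0.08, adjusted p = 0.874) and an interval of −0.14 to 0.23. *Snapc1*, part of the machinery that starts small nuclear RNA transcription, had a difference of −0.08 (SE 0.08, adjusted p = 0.761) with an interval of −0.26 to 0.10. *Foxa1*, a transcription factor of airway epithelium, had 0.11 (SE 0.09, adjusted p = 0.709) with an interval of −0.10 to 0.31. These 95% intervals allow a difference in either direction. *Eapp* and *Snapc1* were selected on these arrays for a difference from C57BL/6J without one between CSS12 and BcA86, so their small differences here are no independent evidence, while *Foxa1* was chosen for a coding variant. RT-PCR in the study bore out the array difference of *Snapc1* but not that of *Eapp*, which its final candidates leave out. *Mettl21d*, another candidate, has no probeset with 1 symbol and was not analysed here.

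Called genes lay next to each other at several places. On Chromosome 15, *D730005E14Rik*, *Apobec3* and *Cbx7* are neighbours in the gene order and all were higher in CSS12, with *Rpl3* close by. *Apobec3* encodes a cytidine deaminase that restricts retroviruses and is known to differ among mouse strains. It had 9.91, 10.22 and 9.85 in CSS12 mice, 8.80, 8.64 and 8.66 in BcA86 mice and 9.82, 9.76 and 9.75 in C57BL/6J mice, a difference of 1.29 (SE 0.10, adjusted p = 0.00284). *Cbx7*, a Polycomb protein that reads methylated histone H3, had 9.71, 9.64 and 9.76 in CSS12 mice, 8.76, 8.76 and 8.80 in BcA86 mice and 10.03, 9.79 and 9.91 in C57BL/6J mice, a difference of 0.93 (SE 0.07, adjusted p = 0.00284). *D730005E14Rik*, which carries no functional name, had 7.29, 7.87 and 7.17 in CSS12 mice, 5.38, 5.45 and 5.37 in BcA86 mice and 7.17, 7.57 and 7.29 in C57BL/6J mice, a difference of 2.05 (SE 0.18, adjusted p = 0.00466). For all 3 genes the BcA86 mice were below every CSS12 and every C57BL/6J mouse. *Pdgfb*, which lies between *Cbx7* and *Rpl3* and encodes a platelet-derived growth factor chain, had a difference of −0.07 (SE 0.07, adjusted p = 0.772).

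Other called genes within 15 places of each other lay on Chromosomes 2, 6, 8, 9, 12 and 14, besides a run of 5 on Chromosome 5 that is given with the multicopy families below. The pair on Chromosome 12 was *1700030C10Rik* and *Iah1*. A pair on Chromosome 14, *Gm9602* and *4930555G01Rik*, both of multicopy families, was lower by 0.78 and 0.60. On Chromosome 8, *Rnf150* and *Tbc1d9* were both higher (0.48 and 0.96), and farther along *Ciapin1*, an inhibitor of apoptosis that acts in iron-sulfur assembly, was lower by 0.57 while *Adgrg3*, an adhesion receptor of granulocytes, was higher by 0.92. On Chromosome 9, *Ppm1m*, a phosphatase, was lower by 0.55 and *Abhd14b*, a hydrolase, was higher by 0.53. On Chromosome 6, *Nat8f3* was higher by 0.65 and *Nat8f4* lower by 0.45, and these belong to one family of N-acetyltransferase-related genes. Farther along Chromosome 14, *Dgkh*, a diacylglycerol kinase, and *Rgcc*, a regulator of the cell cycle, were higher by 0.45 and 0.77, and on Chromosome 2 *Rin2*, a Ras and Rab5 interactor, and *Ralgapa2*, part of a Ral GTPase activator, were higher by 0.38 and 0.33. The adjusted p of these genes lay between 0.00466 for *Tbc1d9* and 0.049 for *Nat8f4*.

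**Figure D2:**
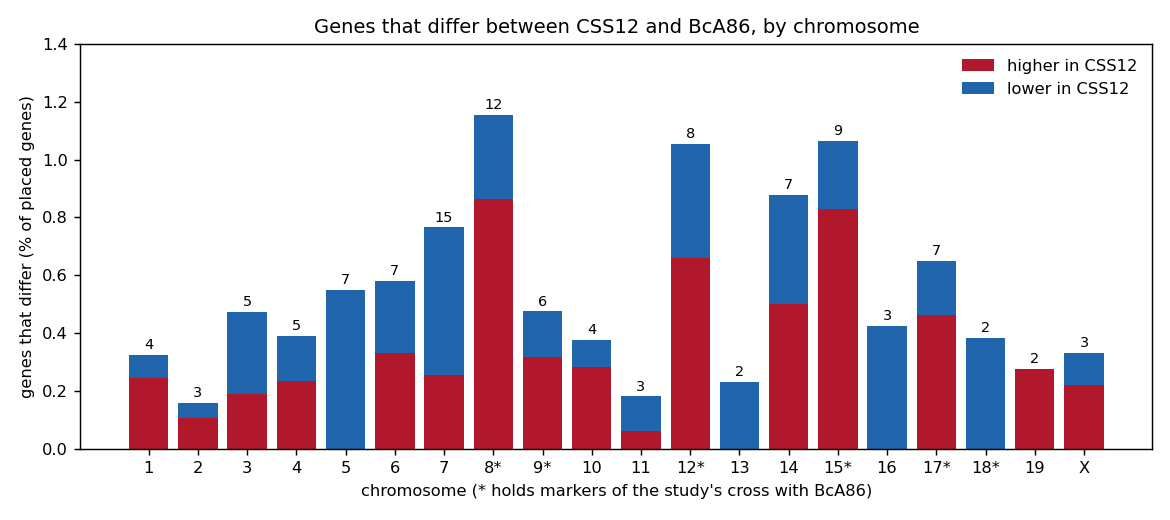
Share of measured genes that differed between CSS12 and BcA86 (vertical axis, percent of the genes placed on a chromosome, 1 count per gene) on each autosome and X, split into genes higher and lower in CSS12, with the number of genes above each bar. Chromosomes 8, 15 and 12 have the highest shares, 1.154%, 1.065% and 1.055%, and Chromosome 2 has the lowest, 0.16%. Chromosome Y, with 4 of 17 genes, is left out of the plot.

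Several clock genes differed between the strains. Of 10 measured core clock genes, 2 were higher (*Per1* and *Cry1*) and 1 was lower (*Arntl*) in CSS12 at an adjusted p under 0.05, where 0.261% of all genes were higher and 0.252% lower when 1 probeset per gene was taken. At an unadjusted p under 0.05, 6 were higher and 2 lower, beside 5.50% and 4.25% of all genes. On all 10 the CSS12 and BcA86 arrays did not overlap, which was so for 17.9% of all genes. Of 11 measured output genes, which the core loop drives, 2 were higher (*Ciart* and *Wee1*) and 9 were higher at the unadjusted p. Their median difference was 0.57 and that of the core genes 0.37, where the median of all genes was 0.01. *Per2* of the core list has no probeset with 1 symbol. These genes were listed with earlier results of the arrays known, so the counts describe the lists and test nothing about them.

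*Arntl*, the positive arm of the loop, had 6.90, 7.28 and 6.96 in CSS12 mice, 8.19, 8.32 and 8.88 in BcA86 mice and 6.66, 6.91 and 6.80 in C57BL/6J mice. The BcA86 mice lay above every CSS12 and C57BL/6J mouse, and the difference was −1.41 (SE 0.18, adjusted p = 0.0219), a fold of 2.66. *Npas2*, the partner that can stand in for CLOCK, had 6.64, 7.26 and 6.78 in CSS12 mice, against 7.84, 7.61 and 8.29 in BcA86 mice, a difference of −1.02 (SE 0.21, adjusted p = 0.0686) that did not pass. *Clock* itself had a difference of −0.16 (SE 0.08, adjusted p = 0.516). Of the repressors, *Per1* had 10.85, 10.80 and 10.94 in CSS12 mice, 9.97, 9.71 and 10.02 in BcA86 mice and 10.39, 10.89 and 10.85 in C57BL/6J mice, a difference of 0.96 (SE 0.14, adjusted p = 0.0316). *Cry1* had 7.18, 7.24 and 7.30 in CSS12 mice, 6.75, 6.79 and 6.70 in BcA86 mice and 7.60, 7.69 and 7.54 in C57BL/6J mice, and its CSS12 mice lay between the others, with a difference of 0.49 (SE 0.06, adjusted p = 0.0221). *Per3*, *Cry2* and *Nr1d2* had differences of 0.78, 0.48 and 0.61 with adjusted p of 0.0639, 0.0739 and 0.0821, and *Nr1d1* and *Rora* had 0.25 (SE 0.09, adjusted p = 0.305) and 0.14 (SE 0.07, adjusted p = 0.479).

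Among the outputs, *Ciart*, a repressor that acts back on the loop, had 9.18, 8.77 and 9.06 in CSS12 mice, 7.65, 7.85 and 7.05 in BcA86 mice and 8.97, 9.05 and 9.12 in C57BL/6J mice. The difference was 1.49 (SE 0.20, adjusted p = 0.0237), a fold of 2.8, with C57BL/6J at the level of CSS12. *Wee1*, a kinase that holds cells before mitosis and a known clock target, had 9.02, 8.88 and 9.19 in CSS12 mice, 8.10, 7.89 and 7.99 in BcA86 mice and 8.66, 8.85 and 9.08 in C57BL/6J mice, a difference of 1.04 (SE 0.12, adjusted p = 0.0183). *Dbp*, a transcription factor with a large daily rhythm, had 11.53, 11.20 and 11.43 in CSS12 mice, 10.84, 10.68 and 9.99 in BcA86 mice and 11.63, 11.36 and 11.67 in C57BL/6J mice. CSS12 was above BcA86 in every mouse, but the difference of 0.89 (SE 0.21, adjusted p = 0.11) did not pass. *Bhlhe41*, *Usp2*, *Tef*, *Tspan4* and *Hlf* had differences between 0.53 and 0.83 with adjusted p of 0.0622 to 0.173, and *Nfil3*, a repressor that peaks opposite to *Dbp*, had −0.0032 (SE 0.10, adjusted p = 0.994). *Cipc* on Chromosome 12, outside both lists, had 8.51, 8.55 and 8.53 in CSS12 mice, against 8.12, 8.06 and 8.12 in BcA86 mice, a difference of 0.43 (SE 0.06, adjusted p = 0.0295).

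Within BcA86, replicate 3 was the farthest from the other strains in most clock genes. It had the highest *Arntl* and *Npas2* of the 9 mice and the lowest *Per3*, *Nr1d2*, *Dbp*, *Tef*, *Hlf*, *Bhlhe41* and *Ciart*. Without this mouse, 1 core gene was called (lower) and the medians of the core and output lists were 0.29 and 0.44. The calls were not kept in smaller fits: no core gene was called in the fit of the 6 CSS12 and BcA86 arrays alone, without any 1 of the CSS12 mice or without BcA86 replicate 2. In each of these fits 5 to 6 core genes were higher at the unadjusted p. Without BcA86 replicate 1 the count of core genes was also 1. No output gene was called without CSS12 replicate 1 or 3, and 1 without CSS12 replicate 2, BcA86 replicate 2 or C57BL/6J replicate 2. The hour at which each lung was taken is not given, and its part in these differences was not tested.

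The upstream sequence of the called clock genes is shown because the BMAL1 complex binds the E-box, whose letters are CACGTG (the same on both strands). The 250 bases before the RefSeq start (GRCm38.p6, the C57BL/6J reference) were searched, and the E-boxes are in capitals. *Ciart* (chr3:95882229-95882478, minus strand) holds 3 in this window, and *Per1* (chr11:69098699-69098948, plus strand, 1 of 2 listed starts), *Cry1* (chr10:85185055-85185304, minus strand) and *Cipc* (chr12:86947093-86947342, plus strand, 1 of 2 starts) hold 1 each. For *Per1* and *Cipc* the window shown was picked because it holds an E-box, and the window of the other start is not shown. *Arntl* (chr7:113207215-113207464, plus strand, 1 of 2 starts) holds none in either window.
Ciart: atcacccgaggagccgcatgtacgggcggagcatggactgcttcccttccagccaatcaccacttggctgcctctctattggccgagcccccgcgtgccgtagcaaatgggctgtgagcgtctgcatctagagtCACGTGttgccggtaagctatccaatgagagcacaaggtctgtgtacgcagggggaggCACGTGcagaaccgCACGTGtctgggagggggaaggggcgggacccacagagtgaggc
Per1: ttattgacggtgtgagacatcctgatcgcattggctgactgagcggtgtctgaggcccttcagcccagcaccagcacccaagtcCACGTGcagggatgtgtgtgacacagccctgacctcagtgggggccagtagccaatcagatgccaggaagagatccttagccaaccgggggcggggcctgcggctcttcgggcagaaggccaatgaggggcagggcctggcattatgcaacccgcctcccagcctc
Cry1: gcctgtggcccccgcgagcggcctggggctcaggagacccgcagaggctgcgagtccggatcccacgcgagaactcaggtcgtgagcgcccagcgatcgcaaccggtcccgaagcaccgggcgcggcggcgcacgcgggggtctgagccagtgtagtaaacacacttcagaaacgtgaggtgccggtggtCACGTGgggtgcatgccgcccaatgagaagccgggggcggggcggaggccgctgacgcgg
Cipc: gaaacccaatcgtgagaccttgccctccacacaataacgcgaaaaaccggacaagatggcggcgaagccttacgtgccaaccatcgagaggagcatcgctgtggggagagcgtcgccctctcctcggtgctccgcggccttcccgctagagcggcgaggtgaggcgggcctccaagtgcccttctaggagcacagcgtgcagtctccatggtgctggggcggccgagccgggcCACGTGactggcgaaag
Arntl: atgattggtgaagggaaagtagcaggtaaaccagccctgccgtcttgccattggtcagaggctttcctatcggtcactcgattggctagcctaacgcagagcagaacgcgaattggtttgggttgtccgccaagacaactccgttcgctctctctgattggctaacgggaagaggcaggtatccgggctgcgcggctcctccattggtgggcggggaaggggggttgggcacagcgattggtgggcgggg

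An E-box was found in this window for 5 of 9 output genes and 2 of 10 core genes that have a listed start, and for 12 of 96 called genes (12.5%), beside 1854 of all 27025 genes (6.86%). *Wee1* has no window in the table used. A match of letters is a description of the reference sequence and not a bound site. AGGTCA, the letters that nuclear receptors such as REV-ERB and ROR recognize, was in the windows of 3 of 10 core genes and in 15.8% of all genes on either strand. The 3 were *Clock*, *Nr1d2* and *Per1*, and the windows of *Arntl* held none. TGTTCT, an arm of the palindromic site of the glucocorticoid receptor, was in those of 4 of 17 listed glucocorticoid targets and in 18.2% of all genes on either strand.

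**Figure D3:**
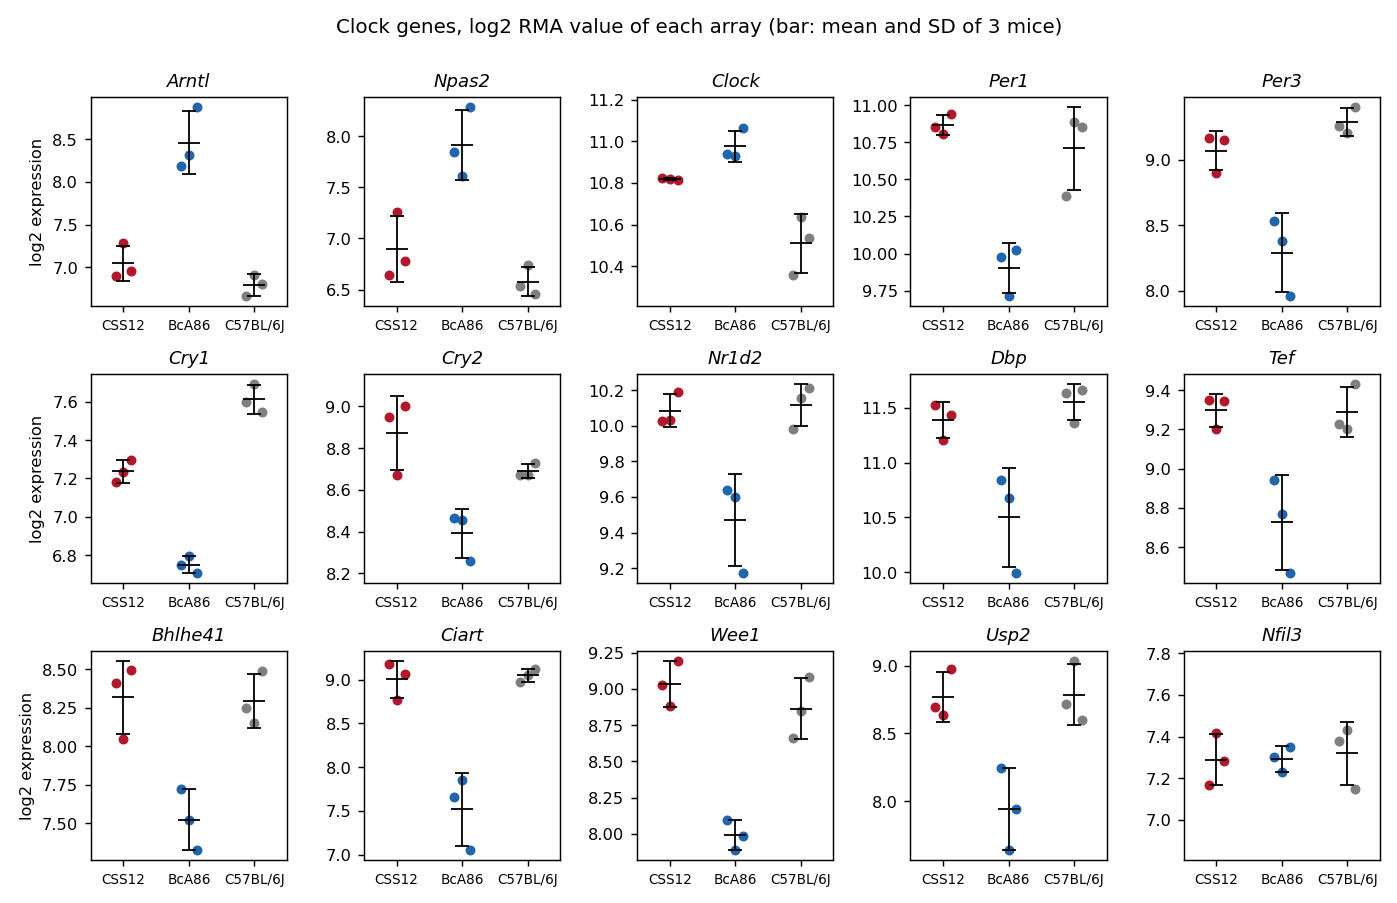
Log2 expression (vertical axes, each panel with its own range) of 15 clock genes, with a point per mouse for CSS12, BcA86 and C57BL/6J and bars for the mean and SD of 3 mice. *Arntl* and *Npas2* lie lower in CSS12 than in BcA86 (7.05 ± 0.21 and 8.46 ± 0.37 for *Arntl*), *Per1*, *Cry1*, *Ciart*, *Wee1* and *Dbp* lie higher, and *Nfil3* overlaps.

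Several direct targets of the glucocorticoid receptor were higher in CSS12. Of 20 listed genes, all measured, 7 were higher and none was lower at an adjusted p under 0.05, and 12 were higher and none lower at an unadjusted p under 0.05. The background shares are those given for the clock lists. The median difference was 0.40, and 17 of the 20 had a positive one. Relative to C57BL/6J the median of the list was 0.45 in CSS12 and 0.13 in BcA86, both set against the same 3 C57BL/6J arrays, while for the clock outputs it was −0.02 in CSS12 and −0.77 in BcA86.

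*Fkbp5*, a co-chaperone that lowers the affinity of the receptor for its hormone and is a sensitive target of it, had 8.18, 8.36 and 8.59 in CSS12 mice, 7.26, 7.20 and 7.25 in BcA86 mice and 6.69, 6.68 and 6.82 in C57BL/6J mice. The strains did not overlap and CSS12 was highest, with a difference of 1.14 (SE 0.10, adjusted p = 0.00479), a fold of 2.21. The call passed with every array left out. *Tsc22d3*, which encodes the leucine zipper protein GILZ, a mediator of the anti-inflammatory action of the hormone, had 8.98, 8.86 and 8.90 in CSS12 mice, 8.02, 8.08 and 8.04 in BcA86 mice and 8.08, 8.37 and 8.41 in C57BL/6J mice. Its difference was 0.87 (SE 0.09, adjusted p = 0.0104), and it passed in 8 of the 9 fits with an array left out. *Fam107a*, a stress-induced actin-binding protein, had 9.77, 10.001 and 9.97 in CSS12 mice, 8.52, 8.31 and 8.48 in BcA86 mice and 7.89, 8.52 and 8.14 in C57BL/6J mice, a difference of 1.48 (SE 0.15, adjusted p = 0.00909) that passed in 7 of the 9 fits. *Hif3a*, a subunit of hypoxia-inducible factors, had 7.15, 7.22 and 7.40 in CSS12 mice, 6.51, 6.49 and 6.51 in BcA86 mice and 6.31, 6.14 and 6.30 in C57BL/6J mice, and its difference of 0.75 (SE 0.08, adjusted p = 0.0106) passed in 8 of them.

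*Klf9*, a Krüppel-like factor that responds to the hormone, had 11.20, 11.12 and 11.27 in CSS12 mice, against 10.74, 10.64 and 10.69 in BcA86 mice, a difference of 0.50 (SE 0.07, adjusted p = 0.0289). *Sult1a1*, a sulfotransferase of phenols, was higher by 0.40 (SE 0.07, adjusted p = 0.0491) and had the same value, 9.32, on all 3 BcA86 arrays. Its call did not pass in any of the 9 fits with an array left out. *Per1*, given above, is the seventh member called. *Zbtb16*, a zinc finger factor strongly induced by glucocorticoids, had 11.13, 11.24 and 11.17 in CSS12 mice, 10.18, 10.44 and 9.97 in BcA86 mice and 8.09, 8.72 and 9.21 in C57BL/6J mice. Every CSS12 mouse lay above every BcA86 mouse, and the difference of 0.98 (SE 0.25, adjusted p = 0.139) did not pass, with a wide spread in C57BL/6J (SD 0.56). *Ddit4*, an inhibitor of growth signalling, had 0.43 (SE 0.10, adjusted p = 0.0994). Of the other targets, *Sgk1*, *Dusp1* and *Cdkn1a* had differences of −0.17, −0.07 and −0.09 with adjusted p of at least 0.548. Left out 1 at a time, the arrays gave 2 to 6 called members, with 2 without CSS12 replicate 2 or CSS12 replicate 3, and 4 without CSS12 replicate 1, C57BL/6J replicate 2 or any 1 of the BcA86 mice, and the fit of the 6 CSS12 and BcA86 arrays alone gave 3. Of 19 measured targets of fasting and PPAR, none was called (3 higher and 0 lower at the unadjusted p in limma, 2 and 0 after adjustment with Cyber-T), and *Angptl4* and *Pdk4* had 0.46 (SE 0.19, adjusted p = 0.394) and 0.41 (SE 0.24, adjusted p = 0.579). Handling and hormone levels of the mice are not given for each array.

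**Figure D4:**
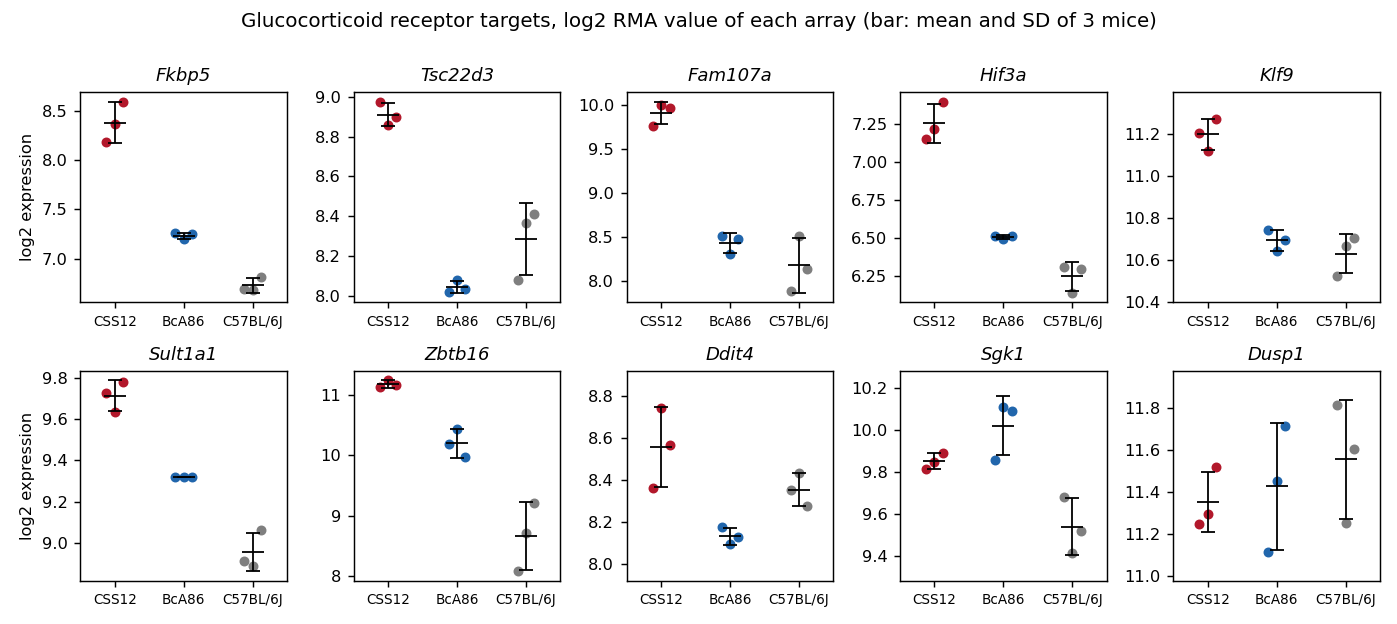
Log2 expression (vertical axes, each panel with its own range) of 10 targets of the glucocorticoid receptor, with a point per mouse for CSS12, BcA86 and C57BL/6J and bars for the mean and SD of 3 mice. CSS12 lies above both other strains for *Fkbp5* (8.38 ± 0.20 in CSS12 and 7.23 ± 0.03 in BcA86), *Tsc22d3*, *Fam107a*, *Hif3a*, *Klf9*, *Sult1a1* and *Zbtb16*, while the strains overlap for *Dusp1*.

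Some transcripts of neutrophils were lower in CSS12 lung. Of 21 measured neutrophil genes, 2 were lower and none was higher at an adjusted p under 0.05, and 13 were lower and none higher at the unadjusted p, with a median difference of −0.98. Over all genes 0.252% were lower at the adjusted and 4.25% at the unadjusted threshold. *Csf3r*, the receptor for granulocyte colony-stimulating factor, had 8.27, 7.82 and 7.62 in CSS12 mice, 9.09, 9.34 and 9.30 in BcA86 mice and 8.96, 9.40 and 8.76 in C57BL/6J mice. CSS12 was below every BcA86 and C57BL/6J mouse, with a difference of −1.34 (SE 0.20, adjusted p = 0.0343). *Ngp*, a granule protein, had 4.70, 4.61 and 4.55 in CSS12 mice, against 5.22, 5.25 and 5.08 in BcA86 mice, a difference of −0.56 (SE 0.08, adjusted p = 0.0304). These values are low, below the median of every array. Other members had larger differences that did not pass. *S100a8*, a subunit of the calprotectin of neutrophil cytosol, had 7.17, 5.88 and 5.97 in CSS12 mice, 8.42, 8.32 and 8.49 in BcA86 mice and 7.83, 9.16 and 7.42 in C57BL/6J mice, a difference of −2.07 (SE 0.47, adjusted p = 0.0974). *Stfa2l1*, a stefin, had 5.53, 4.52 and 4.65 in CSS12 mice, against 7.29, 6.97 and 7.03 in BcA86 mice, a difference of −2.20 (SE 0.40, adjusted p = 0.0557). *Cxcr2*, a chemokine receptor, and *Mmp9*, a gelatinase, had −1.44 (SE 0.28, adjusted p = 0.0678) and −1.43 (SE 0.28, adjusted p = 0.0639). *Lcn2*, *Slpi* and *Ltf*, which airway epithelium also makes, had 0.06, 0.34 and 0.27 with adjusted p of at least 0.661. *Adgrg3*, the adhesion receptor of granulocytes named above, is outside the list and went the other way. It was higher in CSS12 by 0.92 (SE 0.12, adjusted p = 0.0219 from limma) and passed in 5 of the 9 fits with an array left out.

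In whole tissue, fewer cells of a type and less RNA per cell cannot be told apart. The median level of the list was 7.17, 6.82 and 6.41 in CSS12 mice, 7.85, 7.38 and 7.82 in BcA86 mice and 7.71, 8.06 and 7.42 in C57BL/6J mice, so the CSS12 mice lay below all others. The 2 calls passed in 2 and 3 of the 9 fits with an array left out, and the count of 2 was 0 without CSS12 replicate 2 or 3 or BcA86 replicate 1 or 2, 5 without C57BL/6J replicate 2, and 1 without any of the others. The amount of blood left in each lung was not measured. Of 10 measured erythroid genes, *Car2*, a carbonic anhydrase also made by other cells, was lower by 0.42 (SE 0.07, adjusted p = 0.039), while *Slc4a1*, the anion exchanger of red cells, had −0.22 (SE 0.15, adjusted p = 0.641). The median of that list was −0.03.

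The listed genes of B cells gave no call, and 17 of 19 had a negative difference. Of the 19 measured B and plasma cell genes, none passed at an adjusted p under 0.05 in limma. With Cyber-T 12 were lower after adjustment, where 362 of all 23521 probesets with 1 symbol were. At the unadjusted p 12 were lower and none higher in limma, where 4.25% of all genes were lower and 5.50% higher. The median of the list was −0.59. *Cd79a*, a chain of the B cell receptor, had 8.68, 8.53 and 7.98 in CSS12 mice, 9.23, 9.74 and 9.28 in BcA86 mice and 9.69, 8.81 and 9.21 in C57BL/6J mice, a difference of −1.02 (SE 0.26, adjusted p = 0.139). *Bank1*, a scaffold of B cell signalling, had 7.91, 7.88 and 7.43 in CSS12 mice, against 8.70, 8.90 and 8.40 in BcA86 mice, a difference of −0.92 (SE 0.20, adjusted p = 0.0879). *Igkv4-59*, an immunoglobulin kappa segment outside the list that was picked with its values known, was lower by 1.49 (SE 0.16, adjusted p = 0.0114), and passed in 7 of the 9 fits with an array left out. The plasma cell genes *Jchain*, *Mzb1* and *Xbp1* lay between −0.19 and 0.05. The count of 12 was 5 without CSS12 replicate 3, the mouse with the lowest values, and 5 without BcA86 replicate 2, the one with the highest. Of 21 T and NK cell genes none was called (0 higher and 1 lower unadjusted, 0 and 0 with Cyber-T). In that list 18 had a negative and 3 a positive difference, with a median of −0.11. Of 23 macrophage and monocyte genes none was called (4 higher and 1 lower unadjusted, 4 and 1 with Cyber-T). There 17 had a positive and 6 a negative difference, with a median of 0.10. In the T and NK list *Cd8b1* and *Gzma*, a granzyme, had −0.34 (SE 0.25, adjusted p = 0.677) and −0.34 (SE 0.22, adjusted p = 0.624), and in the macrophage list *Chil3*, a chitinase-like protein, and *Ly6c2*, a monocyte antigen, had 0.80 (SE 0.43, adjusted p = 0.536) and −0.66 (SE 0.19, adjusted p = 0.187). The differences between these lists were not tested.

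**Figure D5:**
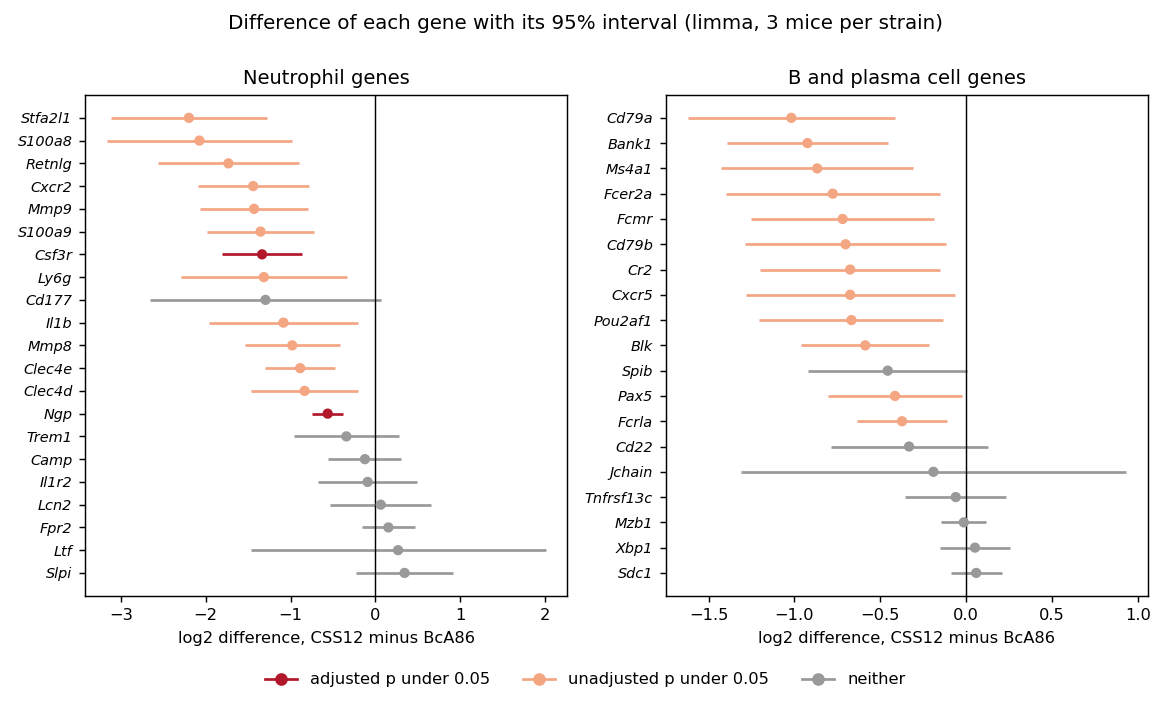
Log2 difference, CSS12 minus BcA86 (horizontal axis), of each measured neutrophil gene and each measured B and plasma cell gene, with the 95% interval from limma (3 mice per strain); dark red marks an adjusted p under 0.05, light red an unadjusted p under 0.05 and grey neither. Of the neutrophil genes, 17 of 21 lie below 0 and *Csf3r* and *Ngp* pass the adjusted threshold, and of the B and plasma cell genes 17 of 19 lie below 0.

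A group of called genes belongs to families with many similar copies, which may share probes of the array. They were 21 of the 119 genes, and all 21 were lower in CSS12. The families were picked by name after their values were seen, and some were entered as the symbols of called genes. Nothing is therefore read from that direction or from the share of members called. *Plac9a* and *Nat8f3*, which also have close relatives and were higher in CSS12, were not entered. Of 1345 measured genes with symbols of these families, among which olfactory receptors are the most, 1.56% were called, beside 0.537% of all genes, and 959 had a negative difference, with a median of −0.10. Of these, 5 on Chromosome 5, *Gm10354*, *Gm17019*, *4930572O03Rik*, *Speer4cos* and *Speer4c* lie together in the gene order. The *Speer* genes encode glutamate-rich proteins of the germ cells of mouse testis. *Speer4cos* had 6.68, 6.74 and 6.66 in CSS12 mice, 8.39, 9.03 and 8.41 in BcA86 mice and 7.26, 6.92 and 6.92 in C57BL/6J mice, a difference of −1.92 (SE 0.17, adjusted p = 0.00558), and *Speer4b*, also on Chromosome 5, had 5.19, 5.47 and 5.07 in CSS12 mice, against 6.59, 6.63 and 6.45 in BcA86 mice, a difference of −1.31 (SE 0.13, adjusted p = 0.00909). On the Y chromosome, 4 of 17 measured genes were called, among them *Srsy* with 7.66, 7.23 and 7.20 in CSS12 mice, against 8.38, 8.87 and 8.36 in BcA86 mice and a difference of −1.18 (SE 0.19, adjusted p = 0.0439), while the single-copy *Kdm5d*, *Eif2s3y* and *Uty* had −0.05, −0.20 and 0.12. *Astx5* on X, *Obox7* on Chromosome 7 and *Mup-ps12* on Chromosome 4 were lower by 1.02, 0.94 and 1.05. Some of these values stand for 1 measurement: the 15 called probesets of *Gm26504* on Chromosome 7 hold the same values on every array, and the 140 called probesets with 1 symbol hold 122 distinct sets of values.

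Genes tied to airway narrowing did not differ at the adjusted threshold. None of 19 smooth muscle contractile genes was called (0 higher and 3 lower unadjusted, 0 and 2 with Cyber-T). Of these, 17 had a negative and 2 a positive difference, with a median of −0.09. *Acta2*, smooth muscle actin, had −0.29 (SE 0.11, adjusted p = 0.353). *Actg2*, another actin, and *Kcnmb1*, a potassium channel subunit, had −0.36 (SE 0.21, adjusted p = 0.574) and −0.35 (SE 0.23, adjusted p = 0.619). Of 28 measured genes of muscarinic and bronchomotor signalling none was called (1 higher and 1 lower unadjusted, 1 and 0 with Cyber-T), with a median of 0.03. *Chrm2*, a muscarinic receptor, had 0.25 (SE 0.14, adjusted p = 0.546), and *Rgs5* and *Rgs2*, regulators of G protein signalling, had 0.32 (SE 0.17, adjusted p = 0.537) and −0.25 (SE 0.10, adjusted p = 0.394). Of 29 extracellular matrix genes none was called (1 higher and 3 lower unadjusted, 0 and 4 with Cyber-T), with a median of −0.03. *Eln*, elastin, had 8.80, 9.68 and 8.98 in CSS12 mice, 9.71, 9.53 and 10.32 in BcA86 mice and 8.11, 8.63 and 8.17 in C57BL/6J mice, a difference of −0.70 (SE 0.28, adjusted p = 0.379) with overlapping mice, and *Tnc*, tenascin C, had −0.48 (SE 0.26, adjusted p = 0.529). With 3 mice per strain, an adjusted p above the threshold does not show that these genes were alike.

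Markers of airway and alveolar epithelium did not pass. None of 17 alveolar genes was called (0 higher and 1 lower unadjusted, 0 and 1 with Cyber-T), none of 15 secretory genes (0 higher and 0 lower unadjusted, 0 and 1 with Cyber-T) and none of 14 ciliated genes (0 higher and 0 lower unadjusted, 0 and 0 with Cyber-T), with medians of −0.01, 0.24 and 0.18. The difference was positive for 7 of the alveolar, 12 of the secretory and 13 of the ciliated genes. *Muc5ac* had 6.27, 9.88 and 6.81 in CSS12 mice, 6.59, 5.71 and 6.36 in BcA86 mice and 6.12, 6.18 and 5.68 in C57BL/6J mice, a difference of 1.43 (SE 0.82, adjusted p = 0.561) with CSS12 replicate 2 above all other mice. *Bpifa1*, a secreted protein of the large airways, had 8.995, 10.08 and 10.24 in CSS12 mice, 12.18, 10.20 and 10.31 in BcA86 mice and 11.14, 11.62 and 7.42 in C57BL/6J mice, a difference of −1.12 (SE 1.07, adjusted p = 0.753), with BcA86 replicate 1 high and C57BL/6J replicate 3 low. *Abca3*, the lipid transporter of type II cells, had −0.19 (SE 0.07, adjusted p = 0.31), and *Sftpd*, surfactant protein D, had 0.16 (SE 0.09, adjusted p = 0.571). Among the ciliated genes *Lrrc23* and *Dnah5*, parts of the axoneme, had 0.36 (SE 0.28, adjusted p = 0.688) and 0.35 (SE 0.35, adjusted p = 0.765). Genes induced by interferon gamma had positive differences in all 14 measured members, yet none was called (0 higher and 0 lower unadjusted, 3 and 0 with Cyber-T), and *Cxcl9* and *Cxcl10*, chemokines for T cells, had 1.16 (SE 0.56, adjusted p = 0.478) and 0.63 (SE 0.33, adjusted p = 0.523) with CSS12 replicate 2 far above the other mice. Of 22 type I interferon genes none was called (1 higher and 1 lower unadjusted, 0 and 0 with Cyber-T), with a median of 0.05, and *Oas2* and *Oas3*, which sense double-stranded RNA, had 0.30 (SE 0.17, adjusted p = 0.553) and −0.27 (SE 0.11, adjusted p = 0.375). Of 9 MHC class II genes none was called either (1 higher and 1 lower unadjusted, 0 and 1 with Cyber-T), with a median of 0.16, and *H2-Ob* and *Ciita*, the class II transactivator, had −0.38 (SE 0.10, adjusted p = 0.161) and 0.37 (SE 0.16, adjusted p = 0.4). Of 18 genes of blood endothelium none was called (1 higher and 3 lower unadjusted, 0 and 0 with Cyber-T), with a median of −0.03, *Nos3*, endothelial nitric oxide synthase, and *Cldn5*, a tight junction protein, having 0.27 (SE 0.08, adjusted p = 0.228) and −0.19 (SE 0.07, adjusted p = 0.333). CSS12 replicate 2 had the highest *Top2a*, *Birc5* and *Cdk1* of the 9 mice. None of 22 proliferation genes was called (1 higher and 0 lower unadjusted, 0 and 0 with Cyber-T), and 19 had a positive difference. In the cardiac list 15 of 17 genes had a negative difference. The cardiac list, with *Nppa* at −0.97 (SE 0.93, adjusted p = 0.754), held no call (0 higher and 0 lower unadjusted, 0 and 0 with Cyber-T), nor did the lists of skeletal muscle (1 higher and 0 lower unadjusted, 0 and 0 with Cyber-T), adipose (0 higher and 0 lower unadjusted, 0 and 0 with Cyber-T) and thymus genes (0 higher and 0 lower unadjusted, 0 and 0 with Cyber-T), and 11 reference genes had a median difference of 0.00, the largest being *Gusb* with 0.12 (SE 0.10, adjusted p = 0.689).

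Of 24 measured immediate early genes, which respond to stimuli within minutes, *Nr4a3*, an orphan nuclear receptor, was called, with 8.41, 8.55 and 8.36 in CSS12 mice, 6.87, 6.68 and 6.66 in BcA86 mice and 7.96, 8.94 and 7.81 in C57BL/6J mice. CSS12 and C57BL/6J overlapped and BcA86 was below both, with a difference of 1.70 (SE 0.26, adjusted p = 0.0349), while the list had a median of 0.01, and its relatives *Nr4a2* and *Nr4a1* had 0.46 (SE 0.10, adjusted p = 0.0811) and −0.42 (SE 0.31, adjusted p = 0.67). The call of *Nr4a3* passed in 2 of the 9 fits with an array left out. Of 14 heat shock genes none was called (2 higher and 0 lower unadjusted, 6 and 0 with Cyber-T), while 13 had a positive difference, 11 did not overlap between the strains (17.9% over all genes) and the median was 0.22. The 2 that were higher unadjusted were 10 in the fit of the CSS12 and BcA86 arrays alone, 7 without C57BL/6J replicate 1, 5 without C57BL/6J replicate 2, and 0 without any one CSS12 mouse or without BcA86 replicate 2 or 3. *Hspa1b*, an inducible chaperone, had 9.38, 9.16 and 9.24 in CSS12 mice, 8.71, 7.87 and 8.10 in BcA86 mice and 10.37, 12.04 and 11.01 in C57BL/6J mice, a difference of 1.03 (SE 0.39, adjusted p = 0.34), with C57BL/6J above both strains, and *Hsph1*, another chaperone, had 0.88 (SE 0.47, adjusted p = 0.528). Of 12 measured *Ly6* surface antigens none was called (3 higher and 2 lower unadjusted, 4 and 2 with Cyber-T), *Ly6i* having 7.80, 10.95 and 7.77 in CSS12 mice, against 7.91, 6.41 and 6.71 in BcA86 mice. *Ly6a2*, outside that list, had 7.77, 7.58 and 7.52 in CSS12 mice, 6.48, 6.46 and 6.84 in BcA86 mice and 10.12, 9.72 and 9.61 in C57BL/6J mice. Both strains were below C57BL/6J, and CSS12 was above BcA86 by 1.03 (SE 0.16, adjusted p = 0.0353). *Map3k6*, a kinase of the stress pathways, had 8.61, 8.90 and 9.04 in CSS12 mice, 7.78, 7.75 and 7.68 in BcA86 mice and 7.10, 7.63 and 7.64 in C57BL/6J mice, a difference of 1.11 (SE 0.16, adjusted p = 0.0316), with BcA86 nearer to C57BL/6J.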

How the data were processed

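Whole lung RNA of 9 mice, 3 per strain, was measured on Affymetrix Gene 2.0 ST arrays. Intensities were normalized with RMA in FlexArray by the authors, and the deposited log2 values, 1 per probeset and array, were used with no further normalization or filter. The genome build of the annotation is not given in the sources used here. The 3 strains were fitted together in limma 3.58.1 (R 4.3.3), with empirical Bayes variances and no block, and the contrast CSS12 minus BcA86 was tested. Benjamini-Hochberg adjustment ran over all 41345 probesets, with 0.05 as the threshold for a call. Lists were counted with 1 probeset per gene, that of the highest mean. Chromosomes were counted with 1 count per gene, as called where any of its probesets was. Genes were placed through RefSeq (GRCm38.p6) by gene identifier, or by symbol where no identifier matched. Upstream windows are from RefSeq. Named are the 15 largest differences in each direction without overlap (predicted genes, small RNAs, receptor segments and olfactory or vomeronasal receptors left out), list members that passed, or the 2 largest where none did, called genes within 15 places of each other, their neighbours, and marker and candidate genes; any other gene was picked with its values known. The 35 gene lists, and the genes described, were chosen with earlier results of these data known. The alternatives are given in the closing section, and the code was tested on simulated data. Cyber-T was kept as an alternative only, since it had made many false calls in an earlier analysis of these data. The number of arrays limits the precision.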

Additional observations from a re-analysis of the deposited data

How the results depend on the processing

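The count of 296 probesets, and those of 63 higher and 77 lower with 1 symbol, depended on the test. A fit of the 6 CSS12 and BcA86 arrays alone gave 62, 19 and 13. Cyber-T, the test that the study names, gave 2245, 451 and 362 at an adjusted p under 0.05 with no fold cut. The study asked for p under 0.05 with a fold cut of 1.4 and states no adjustment, so these are not counts by its rule. Trended and robust variances gave 544 probesets and 137 higher, array weights 784, 155 and 133, and leaving out the dimmest 25% of probesets 609 and 128 higher. Centring each array on its median gave 486 probesets, while repeated probesets counted once gave 47 lower. Leaving out each array in turn gave 49 to 196 probesets, 16 to 49 higher and 9 to 45 lower, the fewest without CSS12 replicate 3. With a replicate block the counts were 136, 26 and 34. The labels give the strains the same replicate numbers, and the deviations of mice of the same number correlated at 0.0602, −0.0292 and 0.0775 over probesets. CSS12 replicates 1 and 3 correlated best with the BcA86 mouse of their own number, and CSS12 replicate 2 with BcA86 replicate 3 (0.0485). These small correlations cannot tell whether the numbers mark a shared batch. None of the 63 called results followed under each alternative turned its sign. Of the 119 genes, 28 passed in the fit of 6 arrays, 42 with the block and 117 with Cyber-T. Low signal limits *Mup-ps12*, *Obox7* and *Gm17019*, whose CSS12 means lay between 2.49 and 3.16. It also limits other calls below the array medians of 6.08 to 6.13. Among them are *Igkv4-59*, with means of 4.01 in CSS12 and 5.50 in BcA86, and *Ngp*, with 4.62 and 5.18. No detection call was used, and the cause of these changes in number was not tested.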

Other observations

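Several enzymes and regulators outside the lists differed between the strains. They were picked with their values in view. *Hdc*, histidine decarboxylase, which makes histamine, had 8.86, 8.73 and 8.97 in CSS12 mice, 9.49, 9.30 and 9.45 in BcA86 mice and 9.22, 9.15 and 9.05 in C57BL/6J mice, and was lower in CSS12 by 0.55 (SE 0.09, adjusted p = 0.0372 from limma). *Ddah1*, which breaks down an inhibitor of nitric oxide synthase, had 10.07, 10.02 and 9.94 in CSS12 mice, 10.53, 10.38 and 10.48 in BcA86 mice and 10.23, 10.30 and 10.17 in C57BL/6J mice, with a difference of −0.45 (SE 0.07, adjusted p = 0.0332). *Igsf6*, an immunoglobulin-like protein of myeloid cells, was lower by 0.63 (SE 0.10, adjusted p = 0.0343), with the BcA86 and C57BL/6J mice above every CSS12 mouse. *Glul*, glutamine synthetase, had 11.25, 11.29 and 11.42 in CSS12 mice, 10.89, 10.84 and 10.83 in BcA86 mice and 10.80, 10.94 and 10.88 in C57BL/6J mice, and *Foxo3*, a transcription factor under insulin control, had 8.60, 8.69 and 8.64 in CSS12 mice, 8.24, 8.07 and 8.09 in BcA86 mice and 8.01, 8.12 and 7.92 in C57BL/6J mice. For both, CSS12 was above every BcA86 and C57BL/6J mouse, with differences of 0.47 (SE 0.07, adjusted p = 0.0312) and 0.51 (SE 0.08, adjusted p = 0.0316). *Lpl*, lipoprotein lipase, had 6.65, 6.82 and 6.68 in CSS12 mice, against 6.14, 6.10 and 6.18 in BcA86 mice, a difference of 0.58 (SE 0.10, adjusted p = 0.0464). *Slc7a5*, a subunit of the transporter of large neutral amino acids, was higher by 0.82 (SE 0.14, adjusted p = 0.045). *Vgll3*, a cofactor of TEAD factors, and *Itga9*, an integrin subunit, had −0.55 (SE 0.06, adjusted p = 0.0135) and 0.56 (SE 0.06, adjusted p = 0.0109). With an array left out, *Vgll3* and *Itga9* passed in 7 and 8 of 9 fits, *Foxo3* in 2, *Glul*, *Lpl* and *Slc7a5* in 1 each, and *Hdc*, *Ddah1* and *Igsf6* in 0.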
